A study of Mus musculus with 12 samples.

Results

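Collagen chain genes encode the polypeptides from which all collagens are built. The members were all genes of the deposited table whose GENCODE M21 symbol consists of Col, a number, the letter a and a number. This gave 43 of 20201 genes, and 31 of the 43 had a mean of at least 10 normalized counts and were tested. RNA was sequenced from mouse primary myotubes, the multinucleated muscle cells formed when cultured myoblasts fuse, in 12 libraries. All cells came from Bmal1-floxed mice and all were infected with an adenovirus. Bmal1, listed in the annotation as Arntl, encodes a transcription factor of the circadian clock. The 6 libraries labelled wildtype carry the label of 21% oxygen, and the 6 labelled Bmal1 knockout that of 1% oxygen. Per the protocol, the virus was either empty or expressed Cre recombinase, which excises floxed sequence, and acted for 48 hours before 6 hours at the oxygen level. Which cells of the cultures were infected was not measured here. Genotype, virus and oxygen go together in the labels and cannot be told apart. The labels name no animal, culture or batch, so each p-value reflects the spread between libraries, and that spread may be technical. In the comparison over all 12 libraries this spread includes any difference between the title runs described below.

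The titles number the libraries from 1 to 12. Wildtype replicates 1 to 3 are titles 1 to 3, knockout replicates 1 to 3 are titles 4 to 6, wildtype replicates 4 to 6 are titles 7 to 9, and knockout replicates 4 to 6 are titles 10 to 12. Arntl followed the genotype label, with 132.9 to 179.0 normalized counts in wildtype and 41.7 to 48.6 in knockout libraries. Egln3, a prolyl hydroxylase gene induced by low oxygen, did not follow the oxygen label. It lay between 194 and 270 in titles 1 to 6 and between 2036 and 2258 in titles 7 to 12, in both labels alike. Slc2a1, a glucose transporter gene induced by low oxygen, split the same way, from 475 to 588 and from 3168 to 3554. By these genes, titles 4 to 6 and titles 7 to 9 go against their oxygen label, while titles 1 to 3 and titles 10 to 12 go with it. No library was regrouped. The label comparison of the tested members was also made within titles 1 to 6 and within titles 7 to 12. Marker and partner genes were tested over all 12 libraries only.

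A collagen is a trimer of chains wound into a triple helix, and the genes fall into classes by what the trimers build. Fibrillar collagens form the cross-banded fibrils of connective tissue, type IV collagen forms the sheet of the basement membrane that wraps each muscle fibre, and type VI collagen forms beaded filaments that link that sheet to the matrix around it. In muscle, fibroblasts are the best known source of matrix collagen, while myogenic cells are known to express type IV chains and several others. Mutations in type VI chain genes cause congenital muscular dystrophies.

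The promoter sequences of 5 members are given here because these genes stood apart between the labels without overlap and have upstream sequence free of exons. RefSeq promoter entries (GRCm38.p6) matched 34 of the 43 members, 26 of them tested. Each stretch is the part of the 250 bases before the RefSeq start that no annotated exon covers, written 5′ to 3′ on the gene's strand. Col18a1 and Col6a2 each have a second RefSeq start, whose stretches of 9 and 24 exon-free bases are not given separately. Capitals mark CANNTG, the general E-box, in Col19a1 and Col6a1, and a 16-base repeat in Col25a1. Col6a2 and Col18a1 have no CANNTG and are all in lower case, and a repeat was sought in Col25a1 alone.

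Col19a1, chr1:24587473-24587687, minus strand: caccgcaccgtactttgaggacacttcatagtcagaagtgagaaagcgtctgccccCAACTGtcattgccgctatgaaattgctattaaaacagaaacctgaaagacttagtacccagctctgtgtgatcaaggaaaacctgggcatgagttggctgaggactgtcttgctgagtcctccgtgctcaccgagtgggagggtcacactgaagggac
Col18a1, chr10:77166549-77166780, minus strand: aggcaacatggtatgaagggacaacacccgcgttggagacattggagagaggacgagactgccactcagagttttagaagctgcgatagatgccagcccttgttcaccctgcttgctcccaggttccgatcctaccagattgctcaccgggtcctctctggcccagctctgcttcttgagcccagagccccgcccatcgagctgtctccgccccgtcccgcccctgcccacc
Col25a1, chr3:130180595-130180844, plus strand: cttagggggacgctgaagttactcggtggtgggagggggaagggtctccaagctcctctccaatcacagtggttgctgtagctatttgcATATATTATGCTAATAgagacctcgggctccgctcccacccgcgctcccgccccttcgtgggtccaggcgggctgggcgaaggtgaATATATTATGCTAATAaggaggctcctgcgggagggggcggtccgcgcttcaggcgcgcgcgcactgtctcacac
Col6a1, chr10:76726169-76726294, minus strand: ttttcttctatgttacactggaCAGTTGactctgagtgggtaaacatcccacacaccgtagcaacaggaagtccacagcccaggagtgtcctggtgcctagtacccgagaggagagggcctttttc
Col6a2, chr10:76623631-76623880, minus strand: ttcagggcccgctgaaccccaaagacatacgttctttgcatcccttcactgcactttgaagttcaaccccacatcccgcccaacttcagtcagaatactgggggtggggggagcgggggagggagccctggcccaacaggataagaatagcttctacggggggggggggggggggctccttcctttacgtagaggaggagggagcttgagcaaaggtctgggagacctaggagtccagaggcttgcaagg

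BMAL1 binds with its partner CLOCK to the E-box CACGTG. The promoter windows ran from 250 bases before to 50 bases after the start. CACGTG was in 0 of the 37 windows of the 34 matched members, on either strand, against 7.15% of all 32851 windows. The core ACGTG, known from hypoxia response elements, was found outside CACGTG on either strand in 5 of the 37 member windows. They belong to Col11a2, Col1a2, Col4a4, Col5a1 and Col6a6, and their share is close to the 13.6% of all windows. The looser CANNTG, which includes CACGTG and reads the same on both strands, was in 66.2% of all stretches of 250 bases before a start. The Col25a1 stretch holds ATATATTATGCTAATA in 2 copies on the plus strand, beginning 161 and 75 bases before the RefSeq start, and 1 of the 32851 windows held this repeat. The repeat was picked as the longest stretch occurring more than once before this start, and no other member was searched for repeats. Because it was picked from this window, its rarity among all windows was largely set in advance and is not a result. The RefSeq start of Col25a1 lies 49344 bases inside the gene as GENCODE gives it. Col4a1 and Col4a2 share a divergent start: the genes lie head to head on chromosome 8 and overlap by 22 bases, and exons cover their upstream stretches. These matches describe letters only.

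The myotube cultures expressed mostly the chains of the major fibrils. Per kilobase of the longest annotated coding transcript, the mean level over the 12 libraries was 8488 normalized counts for Col1a1, 7277 for Col3a1 and 6234 for Col1a2. Col1a1 and Col1a2 encode the chains of type I collagen, and Col3a1 that of type III. Their library ranges per kilobase were 6273 to 10813, 6690 to 8044 and 5579 to 7038, so these neighbours in the order overlap. Col5a2 of type V, which nucleates fibrils, followed at 2535 (2310 to 2726), below all libraries of those 3 genes. The next 5 genes per kilobase were Col6a1 at 1117, Col4a1 at 962, Col5a1 at 927, Col6a2 at 885 and Col6a3 at 813. Their ranges overlap, and together they hold the type VI trimer and the main chain of the basement membrane. Col4a2 (576), Col8a1 (559), Col12a1 (358), Col15a1 (324) and Col5a3 (324) came next, also per kilobase.

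**Figure D1:**
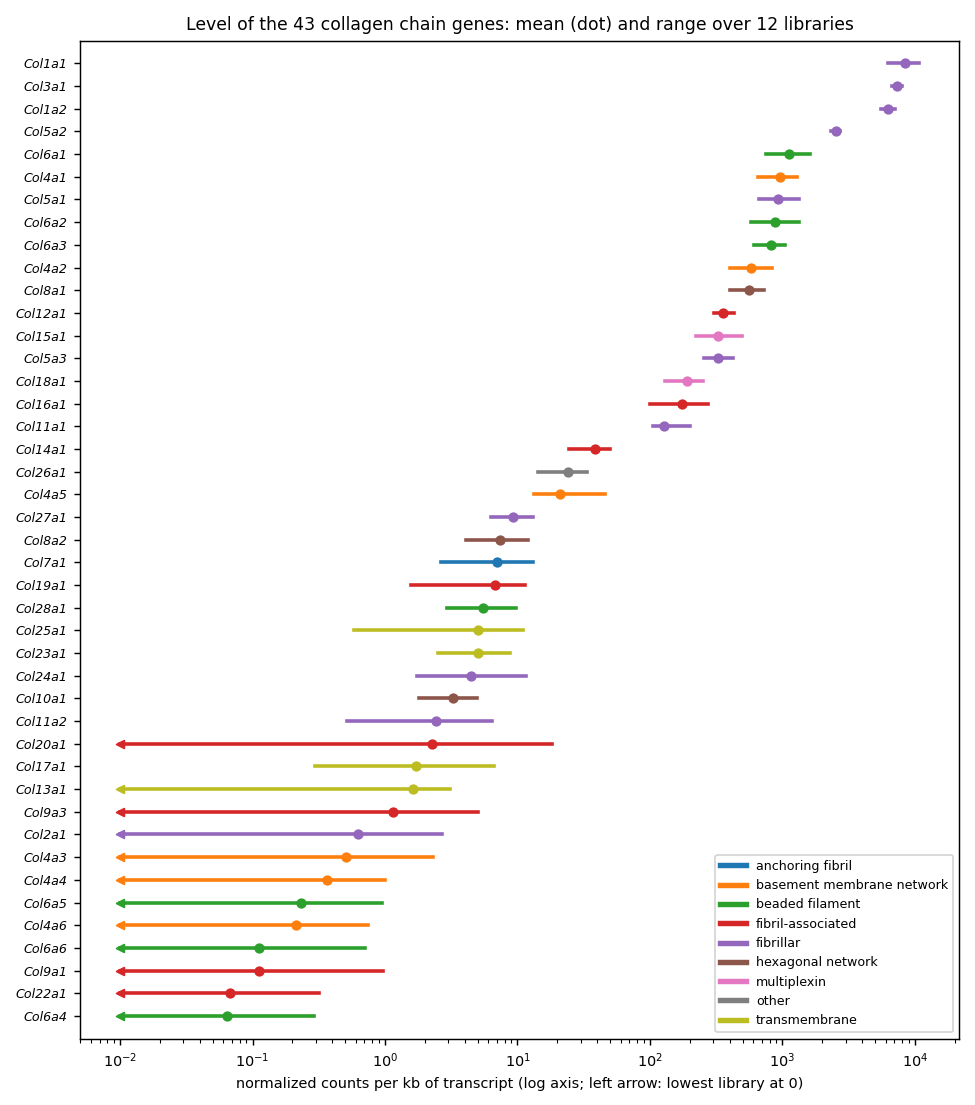
Mean normalized counts per kilobase of the longest coding transcript for the 43 collagen chain genes (log axis), with the range over 12 libraries. The levels run from 8488 for Col1a1 to 0.0641 for Col6a4.

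By share of collagen reads, the fibrillar class took 80.0%, beaded filament chains 8.82%, basement membrane chains 5.32% and fibril-associated chains 2.81%. Col1a1, Col3a1, Col1a2 and Col5a2 alone took 74.3%. The hexagonal network chains of type VIII and X took 1.54%, and the multiplexins, which are basement membrane zone collagens with interrupted helices, 1.43%. The share of collagen among reads outside the 8 most abundant non-coding, mitochondrial ribosomal and Lars2 genes was 4.33% to 4.82% in wildtype and 4.11% to 5.03% in knockout libraries, which overlap.

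Depth sets what can be read from the low members. The libraries held 6376584 to 12463339 recovered reads, of which those 8 genes took 49.2% to 65.4%, and 3 reads corresponded to 2.12 to 5.85 normalized counts. These floors cover counting error only. The 12 members below the mean of 10 lay between 0 and 37.0 in all libraries. They were Col4a3 (0 to 19.6), Col4a4 (0 to 10.1) and Col4a6 (0 to 4.98) of the basement membrane class, and Col6a4 (0 to 2.14), Col6a5 (0 to 8.87) and Col6a6 (0 to 6.19), the alternative chains of type VI. The others were the cartilage chains Col2a1 (0 to 13.6), Col9a1 (0 to 3.73) and Col9a3 (0 to 15.3), the fibril-associated Col22a1 (0 to 2.80), and the transmembrane Col13a1 (0 to 9.75) and Col17a1 (1.65 to 37.0). Just inside the limit was Col10a1 with a mean of 10.2, and just outside it Col17a1 with 9.64.

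Between the labels, 10 of the 31 tested members passed the limma test at an adjusted p under 0.05, against a background of 19.2% of all 12553 genes tested. Of these, 8 were higher in the knockout libraries (background 10.2%) and 2 were lower (background 9.07%). With the 8 abundant genes left out of the scaling the split was 5 higher and 5 lower. Over all 12545 genes of that setting, 613 were higher and 2200 lower. With quantile scaling the members split into 6 higher and 4 lower, while 2110 of all 12553 genes passed in either direction. On the deposited scale the 8 higher members were Col4a1, Col4a2, Col6a1, Col6a2, Col18a1, Col8a2, Col5a1 and Col5a3. The lower ones were Col19a1 and Col25a1. The median log2 difference was 0.15 over the tested members and -0.0015 over all genes, where a positive value is a higher level in knockout libraries on the log2(normalized count + 1) scale. In the fit with the title run as a term 11 members were higher and 3 lower, against 2000 and 1785 of 12553 genes. Leaving out the abundant genes moved the median of all genes to -0.17 and that of the members to -0.02. The members included Col25a1, whose knockout mean was under the limit of 10, so it was tested because of its wildtype level. Col20a1 was tested because of wildtype replicate 2 alone.

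**Figure D2:**
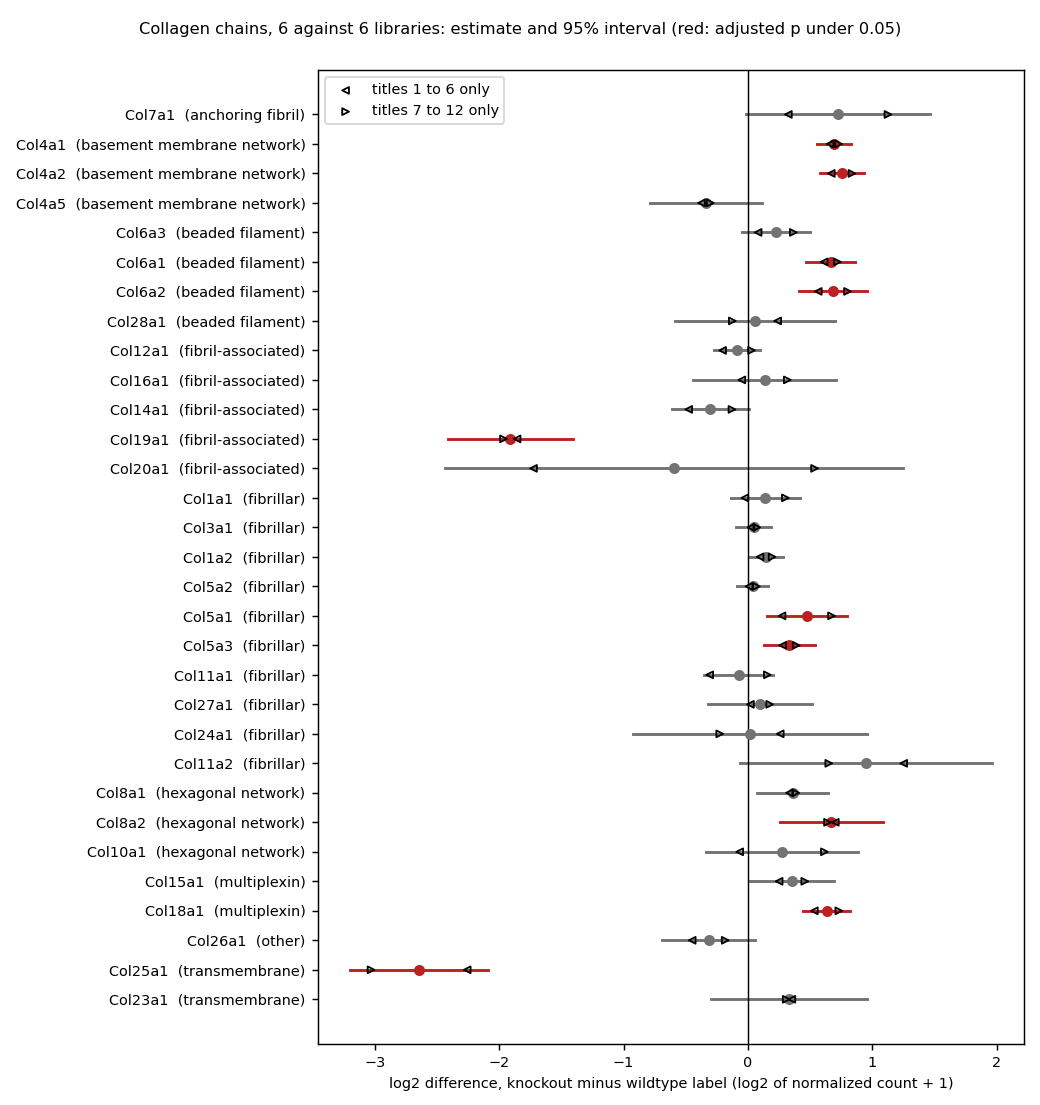
Log2 difference of knockout minus wildtype libraries for the 31 tested members by class, with the 95% confidence interval, and triangles for the difference within each run of titles. The 10 red members passed, with Col19a1 at -1.91 and Col25a1 at -2.64 far to the left and the higher ones between 0.33 and 0.75.

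Type IV collagen in most tissues is a trimer of the chains of Col4a1 and Col4a2. In wildtype replicates 1 to 6 Col4a1 (chromosome 8, 11198423 to 11312826, mm10) stood at 4846, 5140, 4300, 4737, 5162 and 4968 normalized counts. Its values in knockout replicates 1 to 6 were 7921, 7175, 7449, 7873, 8530 and 8232. All knockout values lay above all wildtype values. The gene rose from 4859 ± 320 to 7863 ± 496 (SD, n = 6 each), a log2 difference of 0.69 with a standard error of 0.06 (limma, adjusted p = 7.41e-06).

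Col4a2 (chromosome 8, 11312805 to 11449287) stood at 2632, 2687, 2606, 2637, 2938 and 3046 in wildtype and at 4256, 3918, 4459, 4789, 5250 and 5351 in knockout replicates. The labels again did not overlap. It rose 1.69-fold, by a log2 difference of 0.75 (SE 0.08, limma adjusted p = 3.32e-05). Counting was not stated to use strand, and where these 2 genes overlap their reads may not be told apart. Per kilobase the ratio of Col4a1 to Col4a2 was 1.59 to 1.87 in wildtype and 1.50 to 1.81 in knockout libraries, so the ratio overlapped between the labels.

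Col4a5, a chain of the type IV trimers best known from kidney, was far lower. It stood at 135, 300, 116, 137, 128 and 121 normalized counts in wildtype and at 143, 121, 124, 87.7, 123 and 105 in knockout replicates. Wildtype replicate 2 lay above all the others. The log2 difference was -0.34 (95% interval -0.79 to 0.11, limma adjusted p = 0.303). Col4a6, whose gene lies 1308 bases from Col4a5 on chromosome X, was at 4.98 or less in all libraries.

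Type VI collagen is a trimer whose chains come from Col6a1, Col6a2 and, most often, Col6a3. Col6a1 (chromosome 10, 76708792 to 76726168) stood at 3068, 3560, 3207, 3664, 3878 and 3825 in wildtype and at 5070, 5045, 4898, 5867, 6272 and 6597 in knockout replicates. Col6a2 (chromosome 10, 76595762 to 76623630) stood at 2712, 2958, 2808, 3097, 3580 and 3693 in wildtype and at 4328, 3993, 4228, 5734, 6043 and 6247 in knockout replicates. Both genes were without overlap between the labels. Col6a1 rose 1.59-fold (log2 difference 0.67, SE 0.09, limma adjusted p = 0.000187) and Col6a2 rose 1.61-fold (0.68, SE 0.13, adjusted p = 0.00199).

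Col6a3, the longest of the 3 chains, showed another pattern. It stood at 6144, 9384, 6315, 7359, 8247 and 8037 normalized counts in wildtype and at 7666, 7077, 7959, 9522, 10537 and 10385 in knockout replicates. The labels overlapped, and the log2 difference of 0.22 (95% interval -0.05 to 0.50) did not pass (limma adjusted p = 0.254). Per kilobase, the ratio of Col6a3 to Col6a1 was 0.81, 1.07, 0.80, 0.81, 0.86 and 0.85 in wildtype and 0.61, 0.57, 0.66, 0.66, 0.68 and 0.64 in knockout replicates. A ratio within a library is the same under any factor per library, and this one was lower in all knockout libraries than in any wildtype library. The ratio of Col6a1 to Col6a2 overlapped between the labels, at 1.18 to 1.37 and 1.16 to 1.43. Col6a1 and Col6a2 are neighbours 85.2 kb apart on chromosome 10, and Col6a3 lies on chromosome 1. Col28a1, another chain of the beaded filament class, lay between 12.4 and 41.1 (log2 difference 0.06, adjusted p = 0.923).

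**Figure D3:**
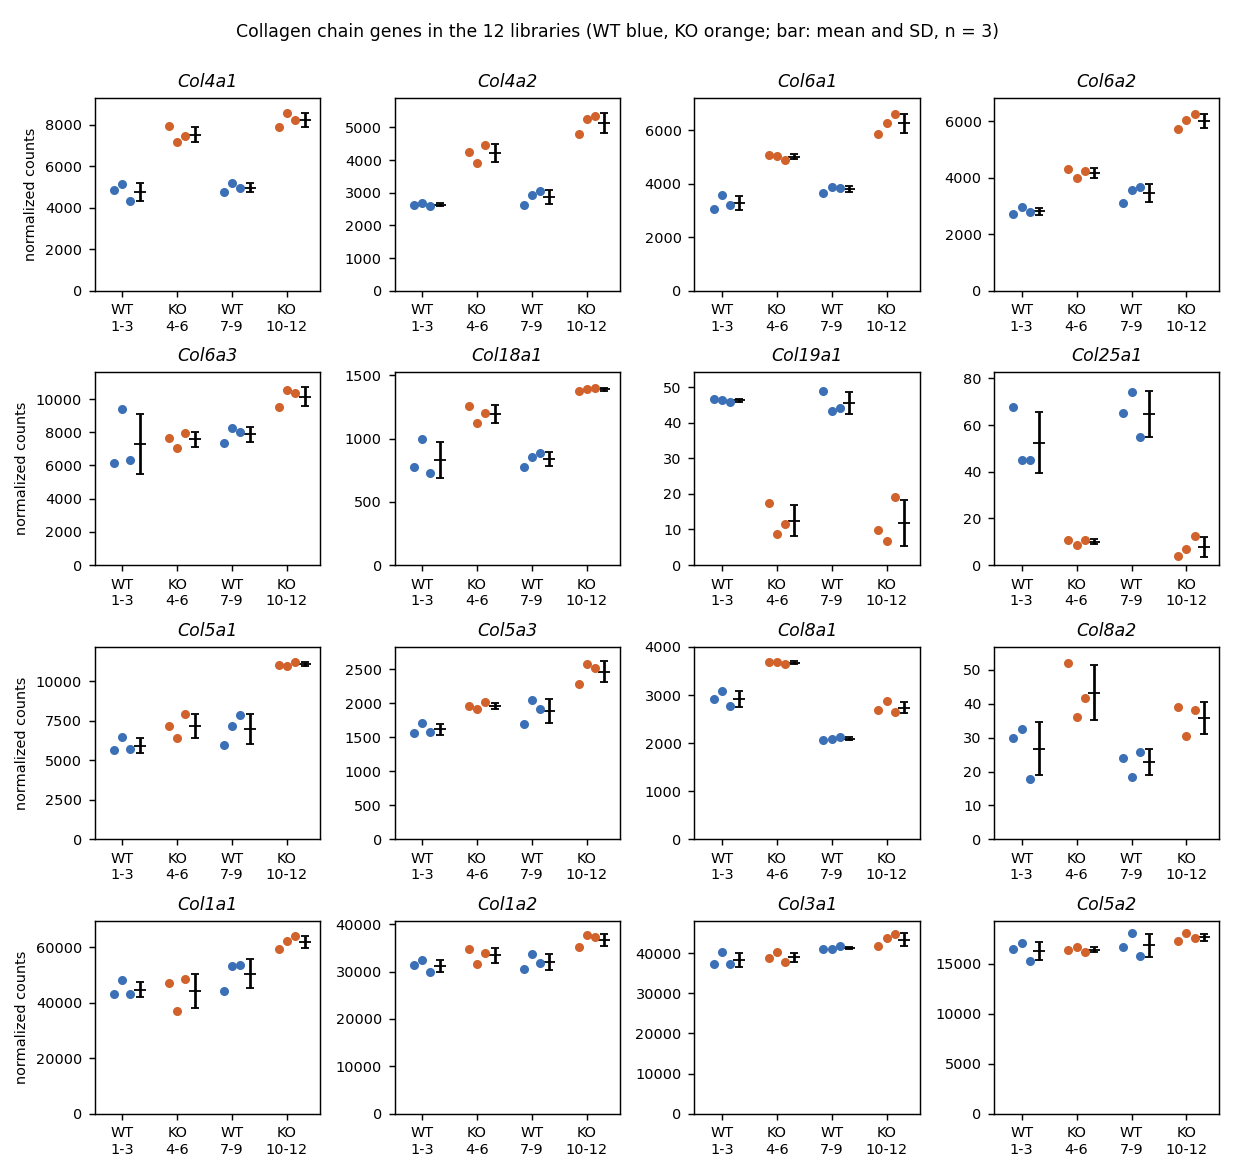
Normalized counts of 16 collagen chain genes in each library, with mean and SD of each block of 3 titles (WT, wildtype label; KO, knockout label). Col4a1, Col4a2, Col6a1, Col6a2 and Col18a1 lie higher and Col19a1 and Col25a1 lower in all knockout libraries, while Col8a1 is also split by title run.

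The major fibrillar chains did not pass. Col1a1 stood at 43140, 48076, 43104, 44336, 53319 and 53563 in wildtype and at 47106, 37198, 48427, 59461, 62148 and 64122 in knockout replicates. The labels overlapped, with knockout replicates 4 to 6 highest and knockout replicate 2 lowest. The log2 difference was 0.14 (95% interval -0.14 to 0.42, limma adjusted p = 0.518). Col1a2 stood at 31462, 32371, 29839, 30599, 33812 and 31742 in wildtype and at 34681, 31617, 33950, 35130, 37640 and 37212 in knockout replicates, a log2 difference of 0.15 (limma adjusted p = 0.124) with overlap. It passed with the title run as a term (adjusted p = 0.0378) and by DESeq2 (adjusted p = 0.0441).

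Col3a1, the type III chain, stood at 37221, 40359, 37382, 41144, 41031 and 41692 in wildtype and at 38810, 40209, 37902, 41704, 43677 and 44759 in knockout replicates. The log2 difference was 0.05 (95% interval -0.09 to 0.19, limma adjusted p = 0.676). With the abundant genes left out of the scaling it was -0.12 and passed (adjusted p = 0.0402). Col1a1 (-0.03) and Col1a2 (-0.02) also changed sign there, as they did with quantile scaling (-0.13 and -0.15).

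Type V collagen is mixed into type I fibrils and limits their width, and its 3 chain genes differed among themselves. Col5a1 stood at 5624, 6463, 5705, 5987, 7152 and 7836 in wildtype and at 7165, 6436, 7955, 11034, 10973 and 11213 in knockout replicates. Knockout replicates 4 to 6 stood above all others, and the rest overlapped. It rose 1.39-fold (log2 difference 0.47, SE 0.15, limma adjusted p = 0.0394). The call was lost in 11 of 23 alternative settings, among them 7 that left out 1 library: wildtype replicates 1, 2, 3 or 4, or knockout replicates 4, 5 or 6 (adjusted p = 0.0527 to 0.0852). With quantile scaling its adjusted p was 0.513.

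Col5a3 stood at 1562, 1707, 1582, 1701, 2040 and 1907 in wildtype and at 1956, 1916, 2011, 2283, 2576 and 2523 in knockout replicates. The labels overlapped through wildtype replicate 5, and it rose 1.26-fold (log2 difference 0.33, SE 0.10, limma adjusted p = 0.0249). The call was lost without wildtype replicates 1 or 3 or knockout replicates 5 or 6 (adjusted p = 0.0546 to 0.0569). It was also lost with the abundant genes left out (difference 0.17, adjusted p = 0.127) and with quantile scaling (0.08, adjusted p = 0.543). Col5a2 stood at 16522, 17084, 15307, 16686, 18061 and 15802 in wildtype and at 16328, 16662, 16182, 17292, 18051 and 17564 in knockout replicates. Its log2 difference was 0.04 (95% interval -0.09 to 0.16, limma adjusted p = 0.713) on the deposited scale, and -0.45 with quantile scaling (adjusted p = 9.1e-05). Per kilobase, the ratio of Col5a1 to Col1a1 was 0.092 to 0.103 in wildtype and 0.107 to 0.131 in knockout libraries, without overlap.

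**Figure D4:**
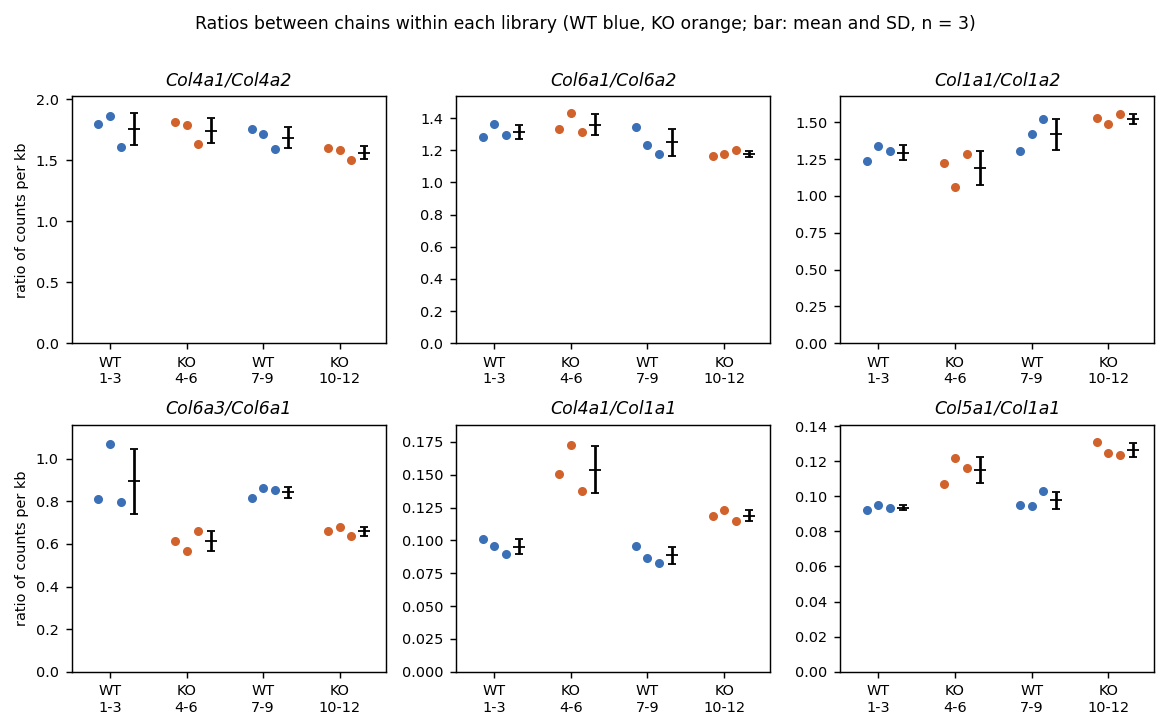
Ratios of chain genes per kilobase in each library, with mean and SD of each block of 3 titles. Col6a3 to Col6a1 is lower, and Col4a1 to Col1a1 and Col5a1 to Col1a1 are higher, in all knockout libraries.

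The ratio of Col4a1 to Col1a1 per kilobase was 0.083 to 0.101 in wildtype and 0.115 to 0.173 in knockout libraries, also without overlap. Of 9 such ratios computed, these 3 (with Col6a3 to Col6a1) did not overlap. The other fibrillar members were low to moderate and did not pass. Col11a1, a chain related to type V, lay between 812 and 1547 (log2 difference -0.08, limma adjusted p = 0.744), and Col11a2 between 3.10 and 38.6 (0.95, 95% interval -0.06 to 1.97, adjusted p = 0.186). Col24a1 (12.4 to 82.1) and Col27a1 (48.4 to 100.1), members of a more distant branch of fibrillar chains, had differences of 0.02 and 0.10.

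The multiplexin Col18a1, a basement membrane collagen from whose end endostatin is released, rose (chromosome 10, 77052178 to 77166548). It stood at 774, 997, 726, 776, 856 and 886 in wildtype and at 1260, 1121, 1206, 1380, 1391 and 1404 in knockout replicates. No values overlapped, and the means were 835.9 ± 98.6 and 1294 ± 116 (SD, n = 6 each; log2 difference 0.63, SE 0.09, limma adjusted p = 0.0002). Col15a1, the related multiplexin of muscle and capillary basement membrane zones, lay between 1145 and 2578 with overlap (0.35, 95% interval 0.02 to 0.69, adjusted p = 0.138). With the title run as a term it passed (adjusted p = 0.00271).

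Of the hexagonal network class, Col8a2 passed and Col8a1 did not. Col8a2 stood at 29.9, 32.5, 17.8, 24.1, 18.4 and 25.7 in wildtype and at 51.9, 36.1, 41.7, 39.0, 30.4 and 38.1 in knockout replicates. Knockout replicate 5 lay within the wildtype range, and the log2 difference was 0.67 (SE 0.19, limma adjusted p = 0.025). Without wildtype replicates 3 or 5 or knockout replicates 1 or 3 the adjusted p was 0.0527 to 0.0608. Col8a1, which is far higher, had a log2 difference of 0.36 (95% interval 0.08 to 0.64, adjusted p = 0.0742), and passed with the title run as a term (adjusted p = 2.26e-05). Col10a1 lay between 5.66 and 15.6 (0.27, adjusted p = 0.571).

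The largest differences among the tested members were decreases, in Col25a1 and Col19a1, which are low in these cultures. Col25a1 was tested only through its wildtype level, so this order depends on the filter. Col2a1, under the filter, near the 3-read floor and not tested, had 0 to 0.934 in wildtype and 1.65 to 13.6 in knockout libraries. Col25a1 (chromosome 3, 130131501 to 130599877) encodes a transmembrane collagen, known in developing muscle for its part in innervation by motor axons. It stood at 67.8, 44.9, 44.8, 65.0, 74.3 and 55.0 normalized counts in wildtype and at 10.7, 8.71, 10.6, 3.90, 6.76 and 12.4 in knockout replicates. The highest knockout value lay below the lowest wildtype value, and the value of knockout replicate 4 was under its 3-read floor of 5.85. The gene fell from 58.6 ± 12.3 to 8.85 ± 3.10 (SD, n = 6 each; log2 difference -2.64, SE 0.26, limma adjusted p = 1.31e-05).

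Col19a1 (chromosome 1, 24261890 to 24587472) encodes a fibril-associated collagen expressed during muscle differentiation. It stood at 46.7, 46.5, 45.8, 48.9, 43.2 and 44.3 in wildtype and at 17.3, 8.71, 11.5, 9.75, 6.76 and 19.1 in knockout replicates. The wildtype values lay close together and far above all knockout values. It fell from 45.9 ± 2.02 to 12.2 ± 4.93 (log2 difference -1.91, SE 0.23, limma adjusted p = 8.68e-05). Both genes passed in all 22 alternatives in which they were tested. A minimum mean of 50 left them out.

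The other fibril-associated and single-class members did not pass. Col12a1 and Col14a1, which bind to the surface of type I fibrils, had log2 differences of -0.09 (3511 to 4926 normalized counts, limma adjusted p = 0.548) and -0.30 (158 to 320, adjusted p = 0.167). Col14a1 passed with the title run as a term (adjusted p = 0.0154), with library weights and with the abundant genes left out, and Col12a1 passed with quantile scaling and with the abundant genes left out. Col16a1 lay between 523 and 1416 (0.13, adjusted p = 0.787), and Col20a1 was at 91.4 in wildtype replicate 2 and between 0 and 8.71 elsewhere. The anchoring fibril gene Col7a1 lay between 24.3 and 121 (0.73, 95% interval -0.02 to 1.47, adjusted p = 0.167), and passed without wildtype replicate 2 (1.00, adjusted p = 0.0198). The transmembrane Col23a1 (14.3 to 49.4) and Col26a1, a chain outside the main classes (39.8 to 92.9), had differences of 0.33 and -0.32 (adjusted p = 0.486 and 0.24).

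In all, 7 of the 31 tested members did not overlap between the 6 and 6 libraries (background 12.4%). Col4a1, Col4a2, Col6a1, Col6a2 and Col18a1 were higher (background 7.07%), and Col19a1 and Col25a1 were lower (background 5.38%). Each of the 5 higher genes passed in all 23 alternatives of the comparison over both runs. With the abundant genes left out of the scaling their log2 differences were 0.47 to 0.59, and with quantile scaling 0.31 to 0.48.

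The label difference was then taken separately in the 2 runs of titles, with 3 against 3 libraries in each. In titles 1 to 6, 10 members passed (background 18.8%), 7 higher (background 10.8%) and 3 lower (background 7.97%). With quantile scaling the split there was 4 higher and 6 lower, without a count over all genes for that setting. In titles 7 to 12, 11 passed (background 16.5%), 9 higher (background 8.84%) and 2 lower (background 7.64%). Passing the same way in both runs were 7 higher members (background 5.97%) and 2 lower (background 4.18%). The higher ones were Col4a1, Col4a2, Col6a1, Col6a2, Col18a1, Col5a3 and Col8a1, and the lower ones Col19a1 and Col25a1. Col4a1 had log2 differences of 0.66 and 0.73 in the earlier and later run (limma adjusted p = 5.46e-05 and 3.87e-05). With quantile scaling its difference in titles 1 to 6 was 0.23 and did not pass (adjusted p = 0.103). Nor did Col5a3 and Col8a1 pass with quantile scaling in titles 1 to 6 (adjusted p = 0.899 and 0.812) or in titles 7 to 12 (0.155 and 0.0726), or Col15a1 in titles 7 to 12 (0.122). In titles 1 to 6 Col5a3 also lost its call without wildtype replicates 1 or 3 or knockout replicates 1 or 3 (0.0522 to 0.0720). The differences of Col25a1 were -2.26 and -3.03, and those of Col19a1 -1.86 and -1.97.

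Col8a1, a chain of the type VIII network made by endothelial and smooth muscle cells, did not pass in the fit without a run term but passed in each run. It stood at 2912, 3077 and 2762 in wildtype and at 3693, 3684 and 3647 in knockout libraries of titles 1 to 6. In titles 7 to 12 it stood at 2066, 2083 and 2138 in wildtype and at 2693, 2873 and 2648 in knockout libraries. The knockout values were higher in both runs and lower in the later run of both labels, so the pooled labels overlapped. It was higher in each run (log2 differences 0.33 and 0.38, limma adjusted p = 0.00134 and 0.000685). Col5a1 and Col15a1 passed in titles 7 to 12, with differences of 0.67 and 0.46 (adjusted p = 0.000719 and 0.00786), and had 0.27 and 0.25 in titles 1 to 6. Col14a1 fell in titles 1 to 6 (-0.48, adjusted p = 0.00579) and had -0.13 in titles 7 to 12. Col8a2 had 0.70 and 0.64 and passed in neither run (adjusted p = 0.0883 and 0.132).

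Whether the label difference itself differed between the runs was tested as an interaction. By limma 0 members passed, against 0.00797% of all genes, and by edgeR 0 members. At an unadjusted p under 0.05 there were 5 members by limma (background 8.52%) and 3 by edgeR. The 5 were Col5a1, Col14a1, Col11a1, Col6a2 and Col1a1, named after their values were seen. For Col5a1 the difference between the runs was 0.40 (95% interval 0.09 to 0.70, limma adjusted p = 0.552). For Col14a1 and Col15a1, which passed in 1 run, the adjusted p of the difference was 0.568 and 0.676. It was thus not shown that these members respond differently in the 2 runs, nor that they respond alike.

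Libraries of one label share all their labels, yet their 2 title runs were apart in many genes, some members among them. These differences are described without a test, since nothing in the labels says what sets the runs apart other than the title numbers. In wildtype libraries 8 of the 31 tested members (25.8%) did not overlap between titles 1 to 3 and 7 to 9, below the background of 33.9%. Of these, 6 were higher in the later titles (background 17.6%) and Col11a1 and Col8a1 lower (background 16.3%). The count of 6 was 3 with quantile scaling and 2 with the abundant genes left out. In knockout libraries 17 members (54.8%) did not overlap between titles 4 to 6 and 10 to 12, against a background of 39.8%. Of these, 15 were higher (background 19.9%) and Col28a1 and Col8a1 lower (background 19.9%). The median difference over the members was 0.06 in wildtype and 0.23 in knockout libraries, against 0.01 and -0.02 over all genes. On the deposited scale 6 members were higher in the later titles of both labels (background 11.1%). They were Col6a1, Col6a2, Col16a1, Col14a1, Col3a1 and Col15a1, and not all hold under those scalings. With quantile scaling Col3a1 changed sign in both labels, from 0.11 to -0.07 in wildtype and 0.15 to -0.07 in knockout libraries. Col8a1 was the 1 member lower in both (background 8.69%), by -0.48 and -0.43.

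Col16a1, a fibril-associated chain, had the widest such gap of the members apart in both labels. It stood at 592, 658 and 672 in titles 1 to 3 and at 964, 1280 and 917 in titles 7 to 9, a difference of 0.70 on the log2 scale. In the knockout libraries it stood at 633, 523 and 714 in titles 4 to 6 and at 1092, 1416 and 1414 in titles 10 to 12, a difference of 1.07. The later values were above all earlier ones in both labels. Col1a1 differed by 0.17 between the wildtype runs, with overlap, and by 0.49 between the knockout runs, without.

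**Figure D5:**
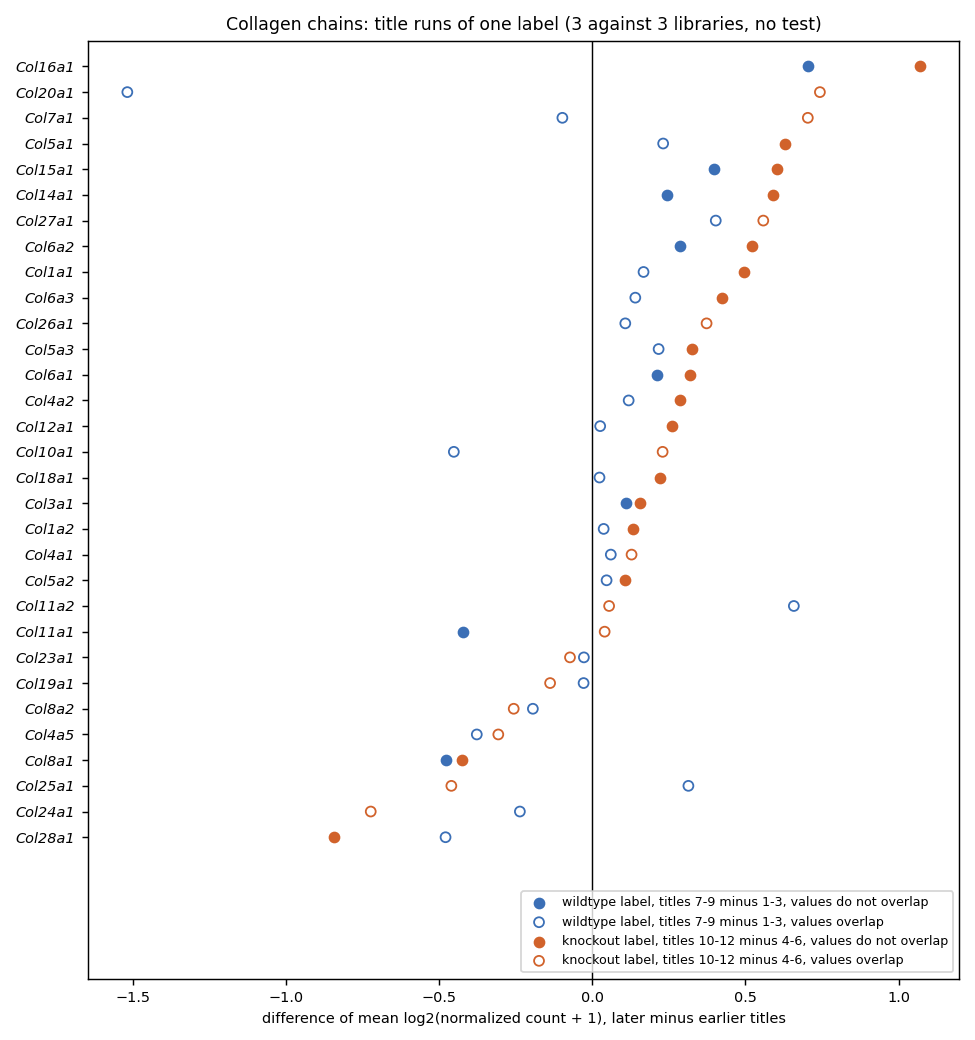
Difference of mean log2 values between the later and earlier titles of one label for the 31 tested members, without a test. Filled points mark members whose 3 and 3 values do not overlap, from Col16a1 at 1.07 to Col28a1 at -0.84 in knockout libraries, with Col8a1 to the left in both labels.

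Marker genes of cell types were read beside these values, in the limma fit over all 12 libraries. In that fit 10.2% of all genes tested were higher and 9.07% lower in knockout libraries. In bulk RNA, fewer cells of a type and less RNA per cell cannot be told apart. Myotube markers summed to 17107 to 21410 normalized counts in wildtype and 27036 to 30430 in knockout libraries. Of the 9, 4 rose (Mymk, Des, Ckm and Acta1) and 3 fell (Myog, Ttn and Actn2), with a median log2 difference of -0.06. The sum rose mostly through Acta1, from a mean of 4253 to 9393, and Des, from 3828 to 8121. Of 5 myoblast markers 2 fell (sums 1072 to 1286 and 954 to 1198). Fibroblast and fibro-adipogenic markers, 11 of 12 of them in the table, summed to 26415 to 28264 and 31216 to 33477. Of the 10 tested, 2 rose (Cd34 and Postn) and Dcn fell, and Postn made up most of the sum with 21916 ± 883 and 26744 ± 812 (SD, n = 6 each). Endothelial markers summed to 1040 to 1186 and 1377 to 1679, and Cdh5 and Pecam1 of the 7 rose. The sums of myotube, fibroblast and endothelial markers did not overlap between the labels, and their part in the collagen differences was not tested.

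The remaining marker lists held 0 genes that passed by limma (background 19.2%), but many of their genes were too low to be tested. Tested were 7 of 7 mural, 2 of 6 macrophage, 1 of 5 Schwann, 1 of 5 adipocyte, 3 of 3 tenocyte and 1 of 4 chondrocyte markers. Mural markers summed to 7859 to 10426 in wildtype and 9398 to 11039 in knockout libraries. Macrophage markers summed to 36.8 to 75.9 and 54.6 to 94.6, and the defining genes Ptprc and Adgre1 had means of 0.589 and 0.931. Most of the sum came from Lyz2 and Cd68, with means of 33.7 and 21.8. Schwann cell markers (32.1 to 85.0 and 48.6 to 77.7), adipocyte markers (12.7 to 38.7 and 7.47 to 20.3) and tenocyte markers (168.8 to 243.9 and 144.9 to 187.9) were low. Chondrocyte markers summed to 95.96 to 255.5 and 78.4 to 239.8 and were higher in titles 7 to 12, from 187.7, than in titles 1 to 6, up to 106.5. Sox9 made up most of that sum, at 59.3 to 86.9 in titles 1 to 6 and 164 to 226 in titles 7 to 12.

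Genes whose products fold, process, bind or degrade collagen were counted in the same limma fit. Of 22 hydroxylases and chaperones that modify and fold the chains, 3 rose and 1 fell, with a median of 0.10. Crtap, which forms the prolyl 3-hydroxylation complex, had the largest rise, of 0.62, and Tmem38b, an ion channel of the endoplasmic reticulum, fell by 0.81. Of 19 genes of propeptide processing, cross-linking and fibril assembly, 10 rose and 1 fell, with a median of 0.30. Fmod, a fibril-binding proteoglycan, rose by 0.89, and Dcn, another, fell by 0.21. Of 17 basement membrane partners 3 rose and 1 fell (median 0.22). Lama1, a laminin chain, rose from 60.3 to 123.8 normalized counts (1.03), and Fras1 fell from 39.8 to 16.9 (-1.25).

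Of 9 collagen receptor genes 2 rose and 0 fell (median 0.22). Adgrg1, an adhesion receptor that binds type III collagen, rose by 0.51. Of 13 genes of degradation 3 rose and 0 fell (median 0.11), with Timp2, an inhibitor of matrix metalloproteinases, at 0.55. Of 19 genes of the transforming growth factor beta axis, a pathway known to induce collagen genes, 5 rose and 0 fell (median 0.11), with Tgfbr3, its co-receptor, at 0.60. Over all genes 10.2% rose and 9.07% fell in this fit. Marker and partner genes were counted on the deposited scale and without a title-run term, and in no other setting. With the abundant genes left out, 613 of all genes were higher and 2200 lower, and whether the rises in the lists hold there was not tested. Lox did not pass (limma adjusted p = 0.177), though its knockout values lay above its wildtype values within each title run.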

How the data were processed

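RNA of 12 libraries was sequenced after stranded total RNA preparation, per the labels' protocols. The deposited table holds a signal, normalized counts per gene. Per the submitters' processing notes, Trimmomatic 0.33, STAR 2.5.2, RSEM 1.3.3 and DESeq2 were used with mm10. Their counting annotation was not given in the sources used here. For similar genes, RSEM assigns reads by estimate. Division by 1 factor per library gave whole reads for 100% of values (tolerance 1e-06 reads), and no 2 libraries were alike within sampling noise.

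Symbols and coordinates came from GENCODE M21 (98.9% of identifiers), promoters from RefSeq. The test was limma 3.58.1 with a trend, two-sided, on log2(value + 1), Benjamini-Hochberg adjusted over the 12553 genes whose mean was at least 10. This scale understates the change of low genes. On recovered reads edgeR 4.0.16 called 2411 genes and limma 2416 on the deposited values. Other pseudocounts, filters and scalings, DESeq2 1.42.0, library weights, a title-run term and left-out libraries were tried. The steps were tested on simulated data. R 4.3.3 and Python 3.11.15 were used. All tested members were named, with all values for passing members and types I, III, IV, V and VI. For each partner list the passing genes of largest rise and fall were named. Members and lists were chosen with earlier results of these data known.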

Additional observations from a re-analysis of the deposited data

Results flagged for a closer look

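In 8 of 82 groups of 6 libraries, over member levels and chain ratios, 1 library lay far from the rest. Chance gives about 1 in 20. Wildtype replicate 2 was that library in 5 of the 8, and it had the fewest reads (6376584) and 29.6% of genes at 0, against 13.0% to 21.9% in the others. It had 116 normalized counts of Col7a1, the anchoring fibril gene, against 24.3 to 51.6 in the other wildtype libraries. It had 300.4 of Col4a5 against 116 to 137, 1547 of Col11a1 against 812 to 1003, and 91.4 of Col20a1 against 0.714 to 6.37. Its ratio of Col6a3 to Col6a1 per kilobase was 1.07 against 0.799 to 0.863.

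Knockout replicate 2 had a ratio of Col3a1 to Col1a1 of 1.15, against 0.744 to 0.878 in the other knockout libraries. In wildtype replicate 6 the ratio of Col5a1 to Col5a2 was 0.391 against 0.268 to 0.312, and that of Col5a1 to Col1a1 was 0.103 against 0.0920 to 0.0953.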

How the results depend on the processing

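No paired analysis was possible because every title number occurs once and the replicate numbers follow accession order. Over all genes, 1277 were higher and 1139 lower in knockout libraries. With the abundant genes left out these counts were 613 and 2200, and with a term for the title run 2000 and 1785. Leaving out 1 library gave 1071 to 1479 and 936 to 1254. Of the members, 8 were higher and 2 lower. With the abundant genes left out 5 were higher and 5 lower, quantile scaling gave 4 lower, and a minimum mean of 50 left 0 lower, since Col19a1 and Col25a1 were then not tested. Leaving out 1 library gave 5 (without wildtype replicate 3) to 9 higher and 2 to 2 lower. Within titles 1 to 6 quantile scaling gave 4 higher and 6 lower, and leaving out 1 library 6 to 11 higher (11 without wildtype replicate 2) and 3 to 4 lower. Within titles 7 to 12 leaving out 1 library gave 9 to 13 higher and 2 to 2 lower, and the interaction stayed at 0. The 6 members higher in later wildtype titles became 3 with quantile scaling and 2 with the abundant genes left out. Apart from the filter, the cause was not tested.

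Some differences between title runs of one label changed sign, among them those of Col3a1 in both labels with quantile scaling. Label differences that changed sign were as follows, and of these, that of Col5a3 in titles 1 to 6 had passed. With the abundant genes left out, the log2 differences were -0.028 for Col1a1, -0.020 for Col1a2, -0.12 for Col3a1, -0.13 for Col5a2, -0.14 for Col24a1, -0.032 for Col16a1, -0.066 for Col27a1 and -0.10 for Col28a1. With quantile scaling they were -0.13 for Col1a1, -0.15 for Col1a2, -0.45 for Col5a2, -0.14 for Col6a3 and, in titles 1 to 6, -0.018 for Col5a3. With library weights they were 0.061 for Col11a1, -0.052 for Col24a1, -0.11 for Col16a1 and -0.0066 for Col27a1. Leaving out 1 library gave -0.996 to 0.15 for Col20a1 and -0.13 to 0.054 for Col11a1 (both positive only without wildtype replicate 2), -0.29 to 0.24 for Col24a1 (negative without wildtype replicates 2, 4, 5 or 6 or knockout replicates 1, 2 or 5) and -0.12 to 0.22 for Col28a1 (negative without wildtype replicates 1 or 5 or knockout replicate 2). Members that passed only under an alternative were Col14a1 (lower with the abundant genes left out, library weights or the run term), Col12a1 (lower with quantile scaling or the abundant genes left out), Col7a1 (higher with library weights or without wildtype replicate 2), Col8a1 (higher with library weights, the run term or without wildtype replicate 2), Col15a1 (higher with the run term), Col1a2 (higher with the run term or DESeq2), and Col3a1 and Col5a2 (lower). Col8a2 also lost its call with no filter (adjusted p = 0.0517) and with the abundant genes left out (0.0851). Depth limits members with few reads: Col25a1 rests on 2 to 105 reads per library.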
